A study of Mus musculus with 4 samples.

Results

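Prl2c2, Prl2c3, Prl2c5 and Prl8a9 are 4 prolactin family genes of the 24346 gene symbols measured by RNA-seq in cultured mouse keratinocytes. They were chosen by their symbols, and the symbols were selected on measured values, because earlier results of these data showed them at higher levels in the later of 2 passages. Their own difference between passages is therefore given as a description, with no test. The cells were hair follicle stem cells (HFSCs) of C3H/HeN mice, sorted by FACS as CD49f- and CD34-positive cells from dorsal skin of 4-week-old animals. They were grown without feeder cells in the serum-free medium M-CnT and passaged weekly, and RNA was taken after 10 passages (10p-HFSCs) or 48 passages (48p-HFSCs). Strain, sort and medium were shared by both groups, which differed in passage number, and each group had 2 libraries. The labels do not say whether the replicates of a group were separate cultures, so p-values below measure only the spread between these libraries, which may be technical.

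The prolactin family is a large group of hormones related to pituitary prolactin and growth hormone, most of which are made in the mouse by trophoblast giant cells and other cells of the placenta. The Prl2c genes encode proliferins, also called mitogen-regulated proteins, which were found as secreted products of growth-stimulated cultured cells, promote the growth of blood vessels and bind the mannose-6-phosphate/insulin-like growth factor 2 receptor, Igf2r. Prl2c5 is also known as Mrp4 and has been described in adult mouse skin. Prl8a9 encodes a prolactin-like protein of the placenta. Prolactin itself acts through its receptor Prlr, the kinase Jak2 and the transcription factor Stat5, of which Cish and Socs2 are well-known targets.

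The labelled cell type was checked first. The keratinocyte genes Krt5 and Krt14 were high in every library, at 1473 to 8156 FPKM (fragments per length of transcript and number of fragments mapped) for Krt5 and 1217 to 3896 FPKM for Krt14. Follicle stem cell markers were mixed. Krt15 was at 136, 82.6, 425 and 18.8 FPKM and Sox9 at 45.6, 44.2, 20.2 and 8.31 FPKM in 10p-HFSC replicates 1 and 2 and 48p-HFSC replicates 1 and 2, whereas Cd34, the gene of the sorted surface marker, lay between 0.0925 and 0.234 FPKM, and Lhx2 was at 0.0241 FPKM in 1 library and listed at 0 in the other 3. The study itself reported most cells as CD34-immunopositive at both passages. By qRT-PCR it found Cd34 RNA maintained and Lhx2 and Sox9 increased in 48p-HFSCs. The reason for this disagreement was not tested. FPKM values carry no read totals, so absolute depth is unknown. The spacing of low values gave relative depths of 100%, 71.6%, 82.9% and 46.7% for 10p-HFSC replicates 1 and 2 and 48p-HFSC replicates 1 and 2. The library lowest by this measure, 48p-HFSC replicate 2, also stood apart in its summed FPKM, 1414953 against 581516 to 719012 in the other 3. The spacing depends on how the FPKM values were scaled as well as on read number, so fewer reads in that library are not shown.

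The 3 Prl2c genes lay side by side on chromosome 13 of mm10, at chr13:12790816-12800079 for Prl2c3, chr13:12996125-13005383 for Prl2c2, both on the minus strand, and chr13:13182715-13191923 on the plus strand for Prl2c5. Prl8a9 lay in the main family cluster of the same chromosome, at chr13:27557995-27564606 on the minus strand. The coding sequences of Prl2c2 and Prl2c3 were 99.6% identical and differed by 3 substitutions, T14C, C200A and T319G, written with the Prl2c2 base first and counted from 1 at the A of the start codon. Prl2c5 was 96.1% identical to Prl2c2, whereas Prl8a9 shared 54.7% with Prl2c2. A stretch of 90 coding bases, from coding position 287 to 376, is shown because no gap-free stretch of that length holds more differing positions. It spans exons 3 and 4 of 5 and holds 8 of the 22 base positions at which at least 1 of the 3 copies differs. Another 6 positions, gaps in the alignment with Prl2c5, lie outside this stretch. For Prl2c3 it is encoded at chr13:12793288-12793316 and chr13:12792114-12792174, for Prl2c2 at chr13:12998581-12998609 and chr13:12997407-12997467, and for Prl2c5 at chr13:13189447-13189475 and chr13:13190586-13190646 (GENCODE M21, GRCm38). Capitals mark the positions that differ.
Prl2c2: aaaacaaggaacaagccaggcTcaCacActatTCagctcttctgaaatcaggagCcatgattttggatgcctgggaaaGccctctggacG
Prl2c3: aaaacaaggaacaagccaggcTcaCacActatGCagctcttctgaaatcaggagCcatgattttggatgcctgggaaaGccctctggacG
Prl2c5: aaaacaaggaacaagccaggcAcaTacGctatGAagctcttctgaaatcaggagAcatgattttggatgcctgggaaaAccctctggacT
Prl2c2 and Prl2c3 differed at 1 position within this stretch. Of the 742 windows of the study's read length in the Prl2c2 transcript, 65.9% were identical in another family gene and 100% were within 2 mismatches of one. For Prl2c3 the shares were 61.96% and 98.02% of 757 windows, and for Prl2c5 8.47% and 45.7% of 744 windows. In Prl8a9, 0 of 842 windows were shared, and the nearest family sequence was 7 mismatches away. Of the Prl2c2 windows, 128 also matched the pseudogene Gm7040, as did 128 of the Prl2c3 windows. The values of Prl2c2 and Prl2c3 taken singly are therefore uncertain, and the 3 Prl2c genes were also summed, while Prl8a9 could be read by itself.

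Summed over Prl2c2, Prl2c3 and Prl2c5, the proliferin level was 12.3 and 6.72 FPKM in replicates 1 and 2 of 10p-HFSCs and 533 and 389 FPKM in those of 48p-HFSCs. The means were 9.53 ± 3.97 and 461 ± 102 FPKM (SD, n = 2), a ratio of 48.4, and the groups did not overlap. Ranked from the top among all genes of its library, the sum stood at places 5465 and 7208 in 10p-HFSCs, against places 166 and 371 in 48p-HFSCs. In bulk RNA, fewer expressing cells and less RNA per cell cannot be told apart.

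Each of the 4 genes was higher in both 48p-HFSC libraries than in either 10p-HFSC library. Prl2c3 was at 3.31 and 1.37 FPKM in 10p-HFSCs and at 332 and 273 FPKM in 48p-HFSCs, with means of 2.34 ± 1.38 and 302 ± 42.1 FPKM (SD, n = 2). Prl2c2 was at 6.74 and 3.83 FPKM in 10p-HFSCs and at 98.6 and 98.3 FPKM in 48p-HFSCs, with means of 5.28 ± 2.05 and 98.4 ± 0.226 FPKM. The order of these near-identical copies was thus reversed between the groups, with Prl2c3 at 0.491 and 0.356 times the level of Prl2c2 in 10p-HFSCs, compared with 3.37 and 2.77 times in 48p-HFSCs. On the log2(FPKM + 1) scale, which understates the change of low genes, the difference of 48p- minus 10p-HFSCs was 6.56 for Prl2c3, 4.02 for Prl2c2 and 5.49 for the sum.

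Prl2c5 was at 2.29 and 1.53 FPKM in 10p-HFSCs and at 102 and 17.9 FPKM in 48p-HFSCs, with means of 1.91 ± 0.537 and 59.9 ± 59.5 FPKM (SD, n = 2; log2 difference 3.94). The 48p-HFSC replicates thus differed 5.71-fold in Prl2c5, against 1.22-fold in Prl2c3. A further Prl2c entry, Prl2c4, was not among the chosen genes. It too was higher in 48p-HFSCs, at 4.65e-05 and 0.000263 FPKM in 10p-HFSCs and 3.64 and 62.5 FPKM in 48p-HFSC replicates 1 and 2. The order of its 48p-HFSC replicates was opposite to that of Prl2c5. Prl2c4 and Prl2c5 together were at 106 and 80.3 FPKM in the 48p-HFSC replicates, which is a 1.31-fold difference. In the current RefSeq gene table, Prl2c4 is a synonym of Prl2c3, and GENCODE M21 lists no gene of that name. With Prl2c4 in the sum, an addition made after its values were seen, the proliferin level was 536 and 451 FPKM in 48p-HFSCs and was not altered at the printed precision in 10p-HFSCs. How the authors' tools shared reads among these entries was not tested.

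**Figure D1:**
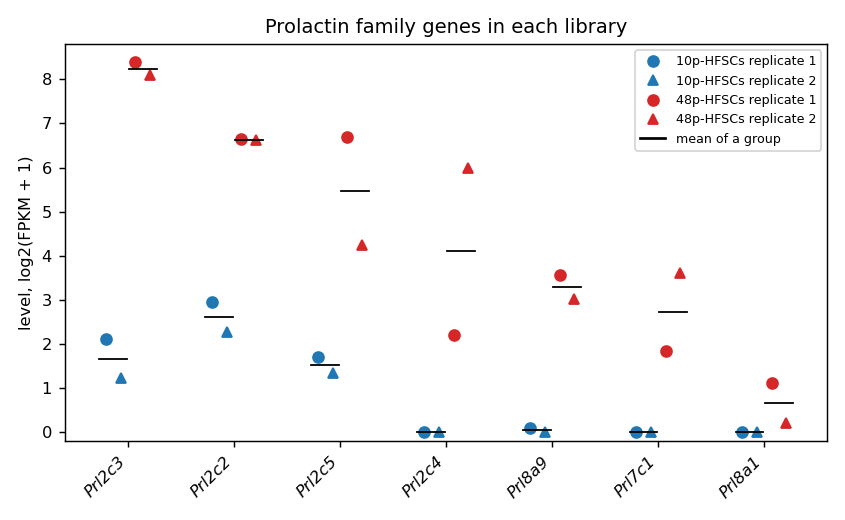
Levels of the 7 prolactin family entries that reached 1 FPKM in any library, as log2(FPKM + 1) on the vertical axis, with 1 point per library (blue, 10p-HFSCs; red, 48p-HFSCs; circle, replicate 1; triangle, replicate 2) and a line at each group mean. Both 48p-HFSC points lie above both 10p-HFSC points for every entry, and the replicates of 48p-HFSCs lie far apart for Prl2c5 (102 and 17.9 FPKM) and Prl2c4 (3.64 and 62.5 FPKM).

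As shares of the 4 Prl2c entries, Prl2c3 made up 26.8% and 20.3% in 10p-HFSC replicates 1 and 2 and 61.9% and 60.4% in 48p-HFSC replicates 1 and 2. Prl2c2 made up 54.6% and 57.0% in 10p-HFSCs but 18.4% and 21.8% in 48p-HFSCs. The listed shares of these 2 entries differed between passages by more than they did between replicates. Reads of these near-identical copies may be shared, so the shares are as uncertain as the single values. Prl2c5 did not follow that pattern, with 18.5% and 22.7% in 10p-HFSCs against 19.0% and 3.96% in 48p-HFSCs, so its groups overlapped, and Prl2c4 held 0.678% and 13.8% in 48p-HFSCs.

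**Figure D2:**
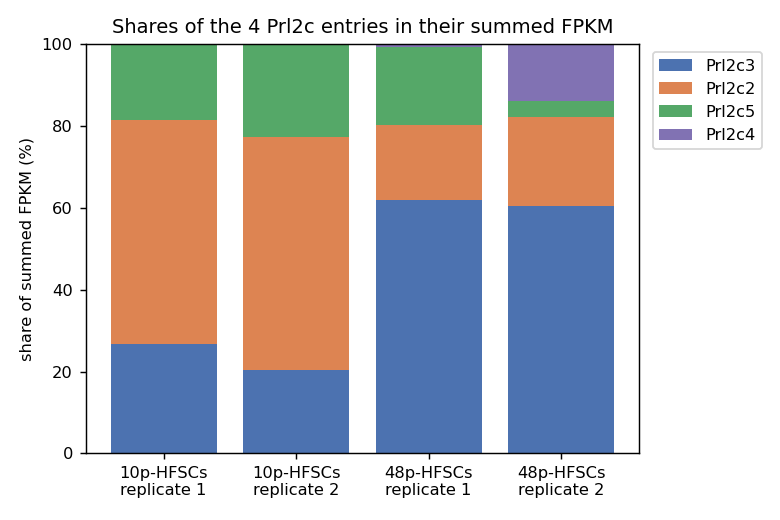
Stacked bars give, for each library, the percentage of the summed FPKM of Prl2c2, Prl2c3, Prl2c4 and Prl2c5 held by each entry. Prl2c2 is the largest segment in both 10p-HFSC libraries (54.6% and 57.0%) and Prl2c3 in both 48p-HFSC libraries (61.9% and 60.4%).

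Prl8a9, which shares no read-length window with its relatives, was at 0.0668 FPKM in 10p-HFSC replicate 1, listed at 0 in replicate 2, and at 10.8 and 7.15 FPKM in 48p-HFSC replicates 1 and 2. The means were 0.0334 ± 0.0472 and 8.97 ± 2.58 FPKM (SD, n = 2), and the log2(FPKM + 1) difference was 3.25. The 48p-HFSC replicates differed by less than the distance between the groups, and the level was far below that of the proliferins in the same libraries. Rescaling each library to a total of 1000000 (TPM) kept the direction of all 4 genes but spread the 48p-HFSC replicates further, to 800.0 and 275 TPM for the Prl2c sum and 16.2 and 5.05 TPM for Prl8a9. Under TPM the median log2 difference of all genes moved from -0.03 to -0.56. Relative to that median, the Prl2c sum differed by 5.51 under TPM and 5.52 in FPKM, and Prl8a9 by 3.83 and 3.28. Without 48p-HFSC replicate 2, the library that stood apart, the log2(FPKM + 1) difference was 5.72 for the sum and 3.51 for Prl8a9.

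The sequence before each start site was read from the RefSeq promoter table (GRCm38.p6), which had entries for Prl2c3, Prl2c5 and Prl8a9. These 250-base stretches are shown because the 4 genes moved together although they lie in separate clusters. Prl7d1, the gene of proliferin-related protein, is added because its stretch was 94.0% identical to that of Prl2c3 and yet Prl7d1 was listed at 0 in all 4 libraries. They lie at chr13:12800080-12800329 (minus strand) for Prl2c3, chr13:13182466-13182715 (plus) for Prl2c5, chr13:27716738-27716987 (minus) for Prl7d1 and chr13:27564607-27564856 (minus) for Prl8a9. Capitals mark the motifs searched on both strands, TGANTCA for AP-1, AGATAA for GATA factors, TTCNNNGAA for STAT factors and TATATA for the TATA box, none of which overlapped another here.
Prl2c3: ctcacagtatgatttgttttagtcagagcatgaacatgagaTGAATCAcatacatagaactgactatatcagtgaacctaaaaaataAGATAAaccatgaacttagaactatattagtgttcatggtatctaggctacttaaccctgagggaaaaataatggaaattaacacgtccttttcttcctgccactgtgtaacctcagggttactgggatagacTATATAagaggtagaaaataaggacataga
Prl2c5: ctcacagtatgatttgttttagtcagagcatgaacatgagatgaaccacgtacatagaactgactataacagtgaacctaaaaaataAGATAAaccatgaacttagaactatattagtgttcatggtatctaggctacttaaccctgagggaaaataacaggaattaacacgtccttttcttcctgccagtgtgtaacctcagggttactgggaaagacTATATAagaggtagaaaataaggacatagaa
Prl7d1: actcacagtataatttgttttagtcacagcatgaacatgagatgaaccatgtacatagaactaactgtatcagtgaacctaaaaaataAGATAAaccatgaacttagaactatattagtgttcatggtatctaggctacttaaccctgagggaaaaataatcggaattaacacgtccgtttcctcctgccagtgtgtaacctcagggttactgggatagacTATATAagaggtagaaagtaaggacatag
Prl8a9: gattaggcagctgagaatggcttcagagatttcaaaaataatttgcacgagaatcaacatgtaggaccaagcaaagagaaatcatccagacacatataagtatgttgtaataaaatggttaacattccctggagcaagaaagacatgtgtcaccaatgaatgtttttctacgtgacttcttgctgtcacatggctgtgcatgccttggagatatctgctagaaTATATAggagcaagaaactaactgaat
The stretches of Prl2c3 and Prl2c5 were 96.0% identical, and both held AGATAA with its first base at -163 and a TATA box near -30, relative to the start site. An AP-1 motif was found in Prl2c3 at -209 and not in Prl2c5 or Prl7d1. The stretch of Prl8a9 was 53.8% identical to that of Prl2c3 and held only the TATA box, at -27. Over 32851 promoters of the same length, TGANTCA was found in 6.7%, AGATAA in 10.0%, TTCNNNGAA in 7.0% and TATATA in 5.2%. A match is a description of letters and not of a bound site.

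Most of the family was silent or nearly so in both groups. Of 28 listed family genes, growth hormone (Gh) included, 15 were listed at 0 in all 4 libraries, among them the placental lactogens Prl3b1 and Prl3d1 and Prl7d1. Another 6 stayed under 1 FPKM in every library, with 0.867 FPKM as the highest value. Prolactin itself was one of these, at 0.142 and 0.198 FPKM in 10p-HFSCs and 0.0854 and 0.760 FPKM in 48p-HFSCs, and its groups overlapped. Prl8a6, which had the highest value, was at 0 and 0.167 FPKM in 10p-HFSCs and 0.698 and 0.867 FPKM in 48p-HFSCs. With no filter its limma adjusted p was 0.0331 and its log2 difference 0.72. A gene under 1 FPKM in every library cannot reach a log2(FPKM + 1) difference of 1, so Prl8a6 could not be called. Prl7a1 was at 0.0647 and 0 FPKM in 10p-HFSCs and 0.156 and 0.139 FPKM in 48p-HFSCs. The groups of Prl8a6 and Prl7a1 did not overlap, while those of Prl2c1, Prl5a1 and Prl6a1 did. The 3 summed Prl2c genes held 97.8% and 93.5% of the family's FPKM in 10p-HFSC replicates 1 and 2 and 96.5% and 82.3% in 48p-HFSC replicates 1 and 2.

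Outside the 4 chosen genes, 24 family genes were listed and 2 reached the filter of 1 FPKM in at least 2 libraries, both only through their 48p-HFSC values. A gene was called where its limma adjusted p was under 0.05 and its log2 difference was 1 or more in either direction. By this rule 2197 of 11018 genes were called (19.9%), 1189 of them higher in 48p-HFSCs (10.8%) and 1008 lower (9.15%), with a median log2 difference of -0.03 over all genes tested, and 37.4% had an unadjusted p under 0.05. Under TPM the split was 623 higher and 812 lower. Prl7c1, a further placental family gene, had no value above 0 in 10p-HFSCs, and reached 2.61 and 11.3 FPKM in 48p-HFSCs (log2 difference 2.74, SE 0.57). Its limma adjusted p was 0.0242 behind the filter, which it passed only where it was high, and 0.070 with no filter, where it was not called. Prl2c4 was not called (log2 difference 4.10, SE 1.13, limma adjusted p = 0.0533, and 0.129 with no filter). It was called with a pseudocount of 0.1 (limma adjusted p = 0.0144) and under TPM (limma adjusted p = 0.00328). Its reads may be shared with the chosen Prl2c genes, so its tests are not separate from the difference that chose them. Prl8a1, the closest relative of Prl8a9 among the genes compared, with 74.8% coding identity, was listed at 0 in 10p-HFSCs and was at 1.16 and 0.158 FPKM in 48p-HFSCs, below the filter. Without 10p-HFSC replicate 1 or replicate 2, limma called neither of these 2 genes (1 had an unadjusted p under 0.05 in each case), and without either 48p-HFSC library it called both.

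**Figure D3:**
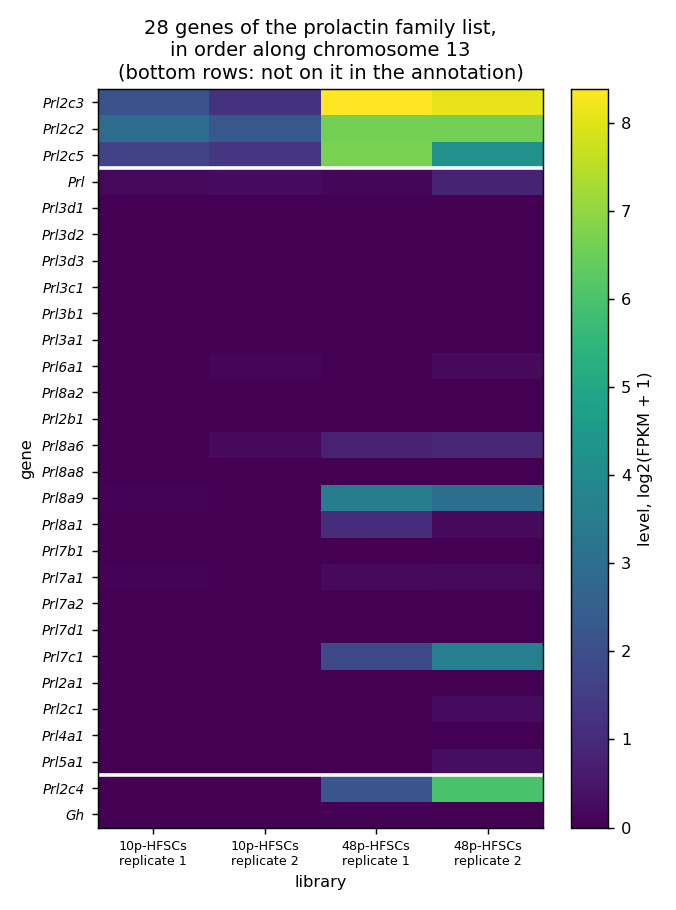
Each row is a family gene and each column a library, with color giving log2(FPKM + 1). The top rows are the Prl2c cluster, the middle rows follow the main cluster along chromosome 13, and the bottom rows are Prl2c4, which the annotation does not list, and Gh, which lies elsewhere; outside Prl2c2, Prl2c3, Prl2c5, Prl2c4, Prl8a9, Prl7c1 and Prl8a1, no gene reached 1 FPKM.

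Next, the receptors and the signalling genes of the family were examined. Of 13 genes listed, Stat5a was at 0 in all 4 libraries, 11 were tested, 4 were called as higher in 48p-HFSCs and 1 as lower, and the median log2 difference was 0.54. Over all genes tested, 10.8% were called higher and 9.15% lower, and the median was -0.03. Prlr, the prolactin receptor, was at 0.00966 and 0.156 FPKM in 10p-HFSCs and 0.672 and 0.119 FPKM in 48p-HFSCs, so it stayed under 1 FPKM and its groups overlapped. Ghr, the receptor of growth hormone, was at 0.812 and 0.844 FPKM in 10p-HFSCs and 13.8 and 22.0 FPKM in 48p-HFSCs, and it rose (log2 difference 3.33, SE 0.32, limma adjusted p = 0.0020, and 0.0136 without the filter, which it passed only through its 48p-HFSC values). Igf2r, which binds proliferin, was at 17.1 and 9.85 FPKM in 10p-HFSCs and 1.49 and 1.42 FPKM in 48p-HFSCs, and it was lower (log2 difference -2.52, SE 0.34, limma adjusted p = 0.0059). The receptor that binds proliferin and the proliferin genes thus stood in opposite order between the groups.

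Among the feedback inhibitors, Cish was at 3.17 and 3.83 FPKM in 10p-HFSCs and 14.2 and 15.0 FPKM in 48p-HFSCs, and it rose (log2 difference 1.80, SE 0.27, limma adjusted p = 0.0083). Socs2 was at 0.0261 FPKM in 10p-HFSC replicate 1, listed at 0 in replicate 2, and at 7.47 and 3.86 FPKM in 48p-HFSCs, and it rose (log2 difference 2.66, SE 0.33, limma adjusted p = 0.0046, and 0.0205 without the filter, which it too passed only in 48p-HFSCs). Socs1 and Socs3, which act on other cytokine receptors too, were not called, with limma adjusted p of 0.277 and 0.557. Ptpn6, the phosphatase SHP-1, was at 2.52 and 1.79 FPKM in 10p-HFSCs and 8.15 and 5.81 FPKM in 48p-HFSCs and rose (log2 difference 1.33, SE 0.30, limma adjusted p = 0.0304, but 0.0804 with no filter). The kinase Jak2 (20.1 to 30.4 FPKM over the 4 libraries), Stat5b (0.599 to 2.30 FPKM), Stat3 and Ptpn11 were not called. Under TPM, 3 of the 5 calls were kept, those of Ghr, Igf2r and Socs2. Relative to the median of all genes, Cish differed by 1.89 under TPM and 1.83 in FPKM, and Ptpn6 by 1.49 and 1.37. Without 10p-HFSC replicate 1 or 2, limma called 0 of the 11 genes (5 and 4 with an unadjusted p under 0.05), while its total over all genes was 175 and 182, and without 48p-HFSC replicate 1 it called 8. Without 48p-HFSC replicate 2 it called 5.

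Of 10 genes for factors known to act at the promoter of proliferin or of placental family genes, 8 were tested, 3 were called higher and 0 lower, and 3 had an unadjusted p under 0.05. Over all genes 10.8% were called higher and 37.4% had an unadjusted p under 0.05, so the second count was near the share of all genes. Their median log2 difference was 0.40, against -0.03 for all genes. Jun, a subunit of AP-1, was at 7.26 and 6.38 FPKM in 10p-HFSCs and 31.9 and 35.0 FPKM in 48p-HFSCs (log2 difference 2.14, SE 0.25, limma adjusted p = 0.0038). Junb was at 60.8 and 52.1 FPKM in 10p-HFSCs and 109 and 134 FPKM in 48p-HFSCs (log2 difference 1.09, SE 0.28, limma adjusted p = 0.0425, but 0.055 with no filter). Gata3 was at 0.633 and 0.861 FPKM in 10p-HFSCs and 4.23 and 7.40 FPKM in 48p-HFSCs (log2 difference 1.93, SE 0.32, limma adjusted p = 0.0124, and 0.0438 without the filter, which it passed only in 48p-HFSCs), and Gata2 did not exceed 0.0674 FPKM. Fos (3.85, 3.50, 7.64 and 1.72 FPKM), Fosl1, Fosl2, Jund and the glucocorticoid receptor gene Nr3c1 were not called. Under TPM, limma called 0 of the 8 (2 with an unadjusted p under 0.05), and it called 0 without 10p-HFSC replicate 1 or 2 (2 with an unadjusted p under 0.05 in each case). Without 48p-HFSC replicate 2 it called 2. Relative to the median of all genes, Jun differed by 2.18 under TPM and 2.17 in FPKM, Junb by 1.07 and 1.12, and Gata3 by 2.22 and 1.96.

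**Figure D4:**
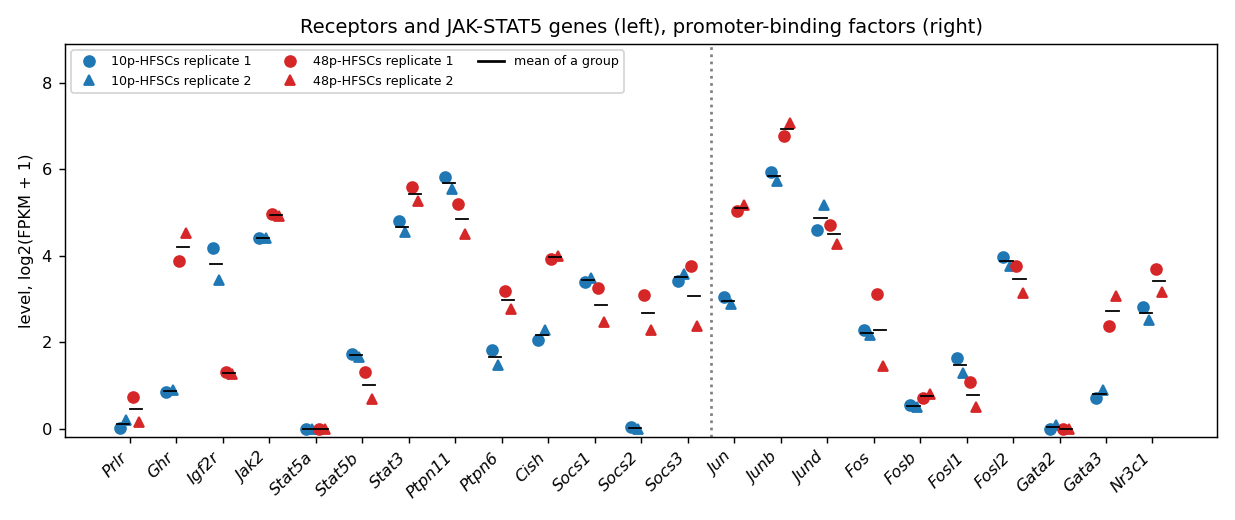
Levels as log2(FPKM + 1) of the receptors and JAK-STAT5 genes (left of the dotted line) and of promoter-binding factors (right), with 1 point per library and a line at each group mean. Ghr, Ptpn6, Cish, Socs2, Jun, Junb and Gata3 lie higher in both 48p-HFSC libraries, Igf2r lies lower (17.1 and 9.85 against 1.49 and 1.42 FPKM), and Prlr stays under 1 FPKM throughout.

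Whether genes outside the prolactin family near the members differed too was examined within 1 Mb. Of 18 genes listed there, 12 were tested, 3 were called higher and 0 lower, 5 had an unadjusted p under 0.05, and the median log2 difference was -0.20. Over all genes, 10.8% were called higher and 37.4% had an unadjusted p under 0.05, so the count of 5 was near the share of all genes. The 3 lay on the same side of the Prl2c genes, before Prl2c3. Lgals8, which encodes a galectin, lay 325.9 kb away and was at 13.2 and 12.4 FPKM in 10p-HFSCs and 42.7 and 41.8 FPKM in 48p-HFSCs (log2 difference 1.65, SE 0.24, limma adjusted p = 0.0075). Ero1lb, an oxidase of the endoplasmic reticulum, lay 179.4 kb away and was at 0.678 and 0.744 FPKM in 10p-HFSCs and 3.51 and 5.50 FPKM in 48p-HFSCs (log2 difference 1.66, SE 0.29, limma adjusted p = 0.0136, and 0.0433 without the filter, which it passed only in 48p-HFSCs). The pseudogene Gpr137b-ps lay 140.4 kb away, between Ero1lb and Prl2c3, and was at 5.54 and 5.76 FPKM in 10p-HFSCs and 14.3 and 30.3 FPKM in 48p-HFSCs (log2 difference 1.72, SE 0.39, limma adjusted p = 0.0315, but 0.0737 with no filter). Its reads may be shared with the parent gene Gpr137b on the other side of the cluster, which was not called (log2 difference 0.87, SE 0.33, limma adjusted p = 0.116). Further genes between or beyond these were not called or were below the filter. So were both neighbours of Prl8a9. Hdgfl1, 787.8 kb away, was listed at 0 in all 4 libraries, and 2610307P16Rik, 895.4 kb away, was at 1.07 to 1.97 FPKM. Family genes, left out here, lay nearer to Prl8a9. Of these, Prl7c1, Prl8a1 and Prl8a6 were higher in both 48p-HFSC libraries, while others, such as Prl8a8 and Prl7b1, were listed at 0 throughout. Under TPM, limma called 0 of the 12 genes (1 with an unadjusted p under 0.05), and without 10p-HFSC replicate 1 or 2 it called 0 (2 with an unadjusted p under 0.05 in each case). Without 48p-HFSC replicate 2 it called 3. Relative to the median of all genes, Lgals8 differed by 1.66 under TPM and 1.68 in FPKM, Ero1lb by 1.96 and 1.70, and Gpr137b-ps by 1.76 and 1.75.

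**Figure D5:**
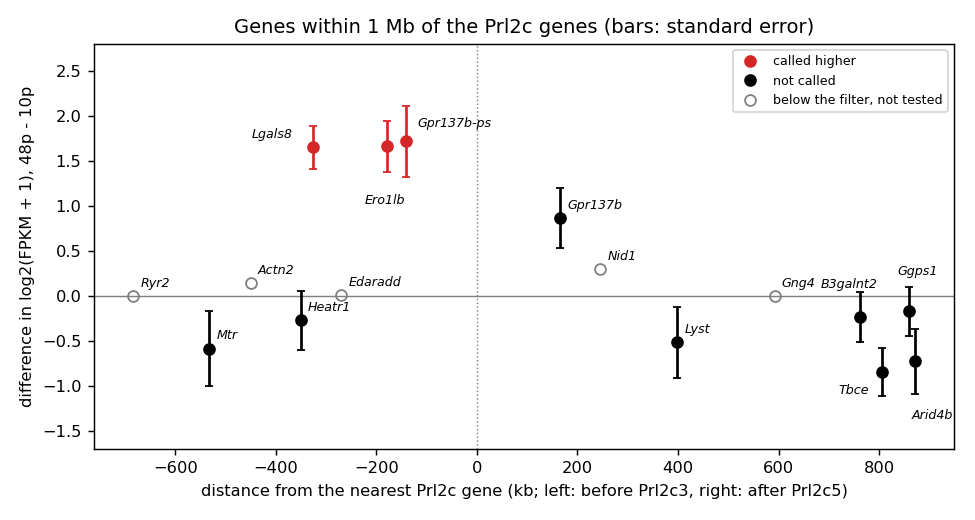
The vertical axis gives the log2(FPKM + 1) difference of 48p- minus 10p-HFSCs, with its standard error. Genes outside the prolactin family within 1 Mb of the Prl2c genes are shown against distance in kb from the nearest Prl2c gene. Lgals8, Ero1lb and Gpr137b-ps, all before Prl2c3, lie between 1.65 and 1.72, while Gpr137b on the other side lies at 0.87.

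Because the family is best known from the placenta, markers of trophoblast and of other cell types were read in the same libraries. Of 16 trophoblast markers, 7 were at 0 in all 4 libraries, among them Hand1, Cdx2, Ascl2 and Tfap2c, and their summed level was 4.49 and 5.19 FPKM in 10p-HFSCs and 5.81 and 7.95 FPKM in 48p-HFSCs. Plac1 supplied most of it and was the single marker tested, and it was not called (log2 difference 0.74, SE 0.30, limma adjusted p = 0.133, unadjusted p = 0.0498). Ctsq, listed at 0 in 10p-HFSCs, was at 0.314 and 0.557 FPKM in 48p-HFSCs. Psg17, in contrast, was at 0.468 and 0.835 FPKM in 10p-HFSCs and 0.0313 and 0.0556 FPKM in 48p-HFSCs. With no filter the limma adjusted p was 0.0467 for Ctsq and 0.0499 for Psg17. Genes under 1 FPKM throughout cannot reach a log2(FPKM + 1) difference of 1, so neither could be called. Also below the filter and without overlap, Gcm1 was higher in 48p-HFSCs, and Tpbpa, Eomes and Syna were lower. Tpbpa, the spongiotrophoblast gene, did not exceed 0.117 FPKM. Pou1f1, the pituitary factor that drives prolactin, was listed at 0 in 3 libraries and at 0.155 FPKM in 48p-HFSC replicate 2.

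Summed levels of other marker lists differed between passages. The summed level of 9 keratinocyte and follicle stem cell markers was 3561 and 2926 FPKM in 10p-HFSCs and 12827 and 7827 FPKM in 48p-HFSCs. Krt5 and Krt14 supplied most of it, and neither was called (limma adjusted p = 0.181 and 0.282). Krt15 and Trp63 were not called either, and their groups overlapped. Cd34 and Lhx2 were below the filter. Itga6 was called higher (limma adjusted p = 0.0143, and 0.0337 with no filter), as was Itgb4 (limma adjusted p = 0.0487, but 0.0599 with no filter). Sox9 was called lower (limma adjusted p = 0.0389, but 0.0852 with no filter), the opposite of the study's qRT-PCR. The sum of 8 fibroblast markers was 353 and 388 FPKM in 10p-HFSCs and 2.50 and 3.32 FPKM in 48p-HFSCs. Vim and Col1a2 were the 2 of these that reached 1 FPKM in any library, and Dcn, Lum and Thy1 were at 0 throughout. The sum of 4 leukocyte markers was 7.32 and 6.83 FPKM in 10p-HFSCs and 53.3 and 78.8 FPKM in 48p-HFSCs, nearly all of it from Cd68, while Ptprc did not exceed 0.0711 FPKM and Cd3e and Tyrobp were at 0. The sum of 4 melanocyte markers was 1.10 and 1.24 FPKM in 10p-HFSCs and 3.39 and 11.7 FPKM in 48p-HFSCs, with Dct at 0 throughout, and that of 3 endothelial markers was 2.38 and 2.26 FPKM in 10p-HFSCs and 1.03 and 0.172 FPKM in 48p-HFSCs. The part of these shifts in the levels of the prolactin family genes was not tested.

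Finally, the genes whose level followed that of the members most closely were listed by the distance between centred log2(FPKM + 1) profiles over the 4 libraries, among 11012 genes outside the family. Nearest to the Prl2c sum were Dpep1 (distance 0.781), Gm773 (0.799), Lbh (0.841), Dppa4 (0.871) and Ap1m2 (0.939). Dpep1, a membrane dipeptidase, was listed at 0 in 10p-HFSCs and was at 59.5 and 60.1 FPKM in 48p-HFSCs. Gm773 was at 1.18 and 1.46 FPKM in 10p-HFSCs and 116 and 121 FPKM in 48p-HFSCs. Nearest to Prl8a9 were Pip5k1b (0.1), Gm13242 (0.151), Il10rb (0.158), Hs3st3b1 (0.181) and Dnase2a (0.183). Il10rb, a receptor chain of interleukin-10, was listed at 0 in 10p-HFSCs and was at 10.5 and 7.88 FPKM in 48p-HFSCs, close to the 10.8 and 7.15 FPKM of Prl8a9. With 4 libraries in 2 groups, such a profile is little more than the difference between the groups.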

How the data were processed

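RNA of 2 libraries of 10p-HFSCs and 2 of 48p-HFSCs was prepared with a stranded mRNA kit and sequenced by the study as single-end reads mapped to mm10. The deposited values are FPKM, 1 per gene symbol and library, computed by the authors. The submitters' processing notes name TopHat2 2.1.1, Bowtie2 2.2.8, SAMtools 0.1.18 and Cuffdiff 2.2.1, while the study's methods give other versions of Bowtie2 and SAMtools and name Cufflinks for the FPKM values; which is right could not be settled. The annotation, the strand setting of the counting and the treatment of multi-mapped reads are not given in the sources used here, and raw counts were not used here.

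Genes with at least 1 FPKM in at least 2 libraries were kept. Groups, taken from the passage numbers in the labels, were compared on log2(FPKM + 1) in R 4.3.3 using limma 3.58.1, two-sided, with moderated variances that follow a trend in level, with Benjamini-Hochberg adjustment over 11018 genes and a minimum absolute log2 difference of 1. The script was tested on simulated data. With 2 against 2 libraries an exact permutation test cannot give a p below 0.333, so none was run. Alternatives were a pseudocount of 0.1, no filter, TPM and median-of-ratios scaling, a constant variance prior, a replicate block and leaving out each library.

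Members and gene lists were chosen with earlier results of these data known. Named genes were all family genes, the called genes of each list, Prlr, Igf2r, the 5 nearest profiles to the Prl2c sum and to Prl8a9, and defining markers; other list members were named after their values were seen. Relative depth came from the most common ratio of values under 0.3 FPKM between libraries. Positions and coding sequences came from GENCODE M21 (GRCm38, another name for mm10), with coding sequences from 1 transcript per gene, and promoters from RefSeq. Identities are from pairwise alignments made with Biopython 1.88.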

Additional observations from a re-analysis of the deposited data

How the results depend on the processing

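Directions did not change under any alternative run for the Prl2c sum, the 4 genes, Prl2c4 and the genes called in the family, receptor, promoter-binding and neighbour lists. Leaving out a library could not have reversed them, because the groups overlapped for none of these genes. No filter, a constant variance prior and a replicate block leave a log2 difference unaltered. Median-of-ratios scaling leaves it nearly so, since its factors were 1 to 1.011 over the 4 libraries. The unchanged directions are therefore no separate evidence. Cell type markers were not rerun singly. The Prl2c sum, at a log2 difference of 5.49, was 4.95 under TPM and 5.10 to 5.88 with a library left out, and Prl8a9, at 3.25, was 6.11 with a pseudocount of 0.1 and 2.98 to 3.51 with a library left out. Adding Prl2c4 to the sum, an alternative chosen after seeing the data, gave 5.60. Over all genes, limma called 2197, and each alternative gave its own total, 1453 with no filter (16679 genes tested), 1435 under TPM and 175 to 3811 with a library left out, the lowest without 10p-HFSC replicate 1 (182 without replicate 2) and the highest without 48p-HFSC replicate 1. A fit that leaves out a library assumes that the lone sample varies like the other group. Of family genes outside the 4, 1 was called, against 2 with a pseudocount of 0.1, 0 with no filter (4 with an unadjusted p under 0.05), 2 under TPM and 0 to 2 with a library left out. Calls numbered 5 for receptor and signalling genes (3 under TPM, 0 to 8 with a library left out), 3 for promoter-binding factors (0 under TPM, 0 to 3) and 3 for neighbouring genes (0 under TPM, 0 to 4). Trophoblast markers gave 0 calls in all alternatives run, which was largely fixed in advance. Behind the filter Plac1 was the 1 marker tested. With no filter 9 were tested and 3 had an unadjusted p under 0.05, but markers under 1 FPKM cannot reach a log2 difference of 1. For single genes other than Prl8a9, 116 values kept their side of the threshold or their spread, 37 lost a call, 5 gained one and 2 moved. The 116 include values of Prl2c2, Prl2c3 and Prl2c5 under settings that leave a log2 difference unaltered. With a replicate block the family count was 2, since Prl2c4 was then called (limma adjusted p = 0.000182). Each family count of 2 includes Prl2c4, whose reads may be shared with the chosen Prl2c genes. With the block the count over all genes was 3110, and the calls in the other lists were 5, 3 and 3. Same-numbered replicates deviated together (r = 0.408 across 11018 genes, which are not independent), but with 2 pairs and no label that links them the numbers are not shown to pair the samples. Depth is unknown in absolute terms, so whether a gene listed at 0 was absent cannot be told.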
